A study of Mus musculus with 16 samples.

Results

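The 34 genes described here are the enzymes, transporters and regulators of glycolysis and the hypoxia response genes in the deposited expression table of endothelial cells from mouse conceptuses. They were taken from the table by gene symbol, from a fixed list of 34 names, and all 34 were found among its 33531 genes. They comprise 16 glycolytic enzymes, 4 transporters of glucose or lactate, 3 regulators of glycolytic flux, 4 oxygen-sensing genes and 7 further targets of the hypoxia-inducible factors. RNA-seq was run on 16 libraries, 2 for each combination of embryonic stage (E10.5 or E9.5), site (yolk sac or embryo) and sorted cell type. Hemogenic endothelium (HE), the endothelium from which blood cells bud, was sorted by its Runx1-GFP signal together with CD31, from cells with little or no kit. Endothelial cells (EC) carried CD31 but neither Runx1-GFP nor kit, and both gates left out cells with CD41 or CD45. The embryo samples came from the trunk region around the aorta, gonads and mesonephros, with pieces of somite and the vitelline and umbilical vessels, after head, heart, lung, liver and gut regions had been removed. The sires of all groups were homozygous for the Runx1-GFP allele (Runx1tm4Dow) and the dams were B6C3F1 mice, superovulated at 3 weeks of age, so HE and EC share that reporter. Cells were sorted into Trizol-LS or a serum buffer, and which library had which is not given. The labels do not say how many conceptuses were pooled, nor that replicates were separate litters or sorts. The p-values therefore refer to the spread between these libraries alone, and part or all of it may be technical.

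Glycolysis splits glucose into pyruvate in a chain of enzymatic steps and yields ATP without oxygen, and lactate dehydrogenase and monocarboxylate transporters dispose of the surplus pyruvate as lactate. Endothelial cells are known to draw most of their ATP from this route. When oxygen is scarce, prolyl hydroxylases of the Egln family stop marking the alpha subunits Hif1a and Epas1 for degradation, and these factors then switch on many glycolytic genes, Egln3 itself and stress genes such as Bnip3 and Ddit4.

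Levels are FPKM, fragments scaled to transcript length and to the mapped fragments of the library, as deposited. Differences are on the log2(FPKM + 1) scale with the standard error (SE), from limma fitted to all 13955 genes that reached an FPKM of 1 in at least 2 libraries. A gene was called at an adjusted p under 0.05 over all of these genes, and all 34 glycolysis and hypoxia genes were among them. Where 4 values are listed for a site and cell type, they are E10.5 replicates 1 and 2 and then E9.5 replicates 1 and 2. FPKM summed to between 586501 and 785252 per library, and 11639 to 12527 genes reached an FPKM of 1; read depth is unknown. The E10.5 yolk sac HE libraries held little of the endothelial markers (8 genes, summed FPKM 167 to 479, against 617 to 2467 in all other libraries), with Pecam1, which encodes the CD31 of the sort gate, at 47.6 and 12.6 FPKM. E9.5 yolk sac HE replicate 2, which held the sum of 617, also had low Pecam1, 48.8 FPKM. It stays in the fits that leave out the E10.5 yolk sac HE libraries. Runx1 in the E10.5 yolk sac HE libraries, 2.19 and 2.17 FPKM, was no higher than the 2.60 and 2.04 FPKM of E10.5 yolk sac EC. Replicate 2 of this group stood farthest from the other libraries in a principal component analysis (76.1 on the first component, against −54.5 to 60.1). Beside a call that was lost without both libraries of this group, the result without them is given, and both replicate 1 libraries of the E10.5 yolk sac are described with Gapdh.

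The 34 genes spanned a wide range of levels. Ldha, the lactate dehydrogenase subunit that favours lactate, averaged 1573 FPKM over the 16 libraries, the pyruvate kinase gene Pkm 1212, the aldolase gene Aldoa 822, the enolase gene Eno1 770.2 and the glucose transporter gene Slc2a1 566. Aldoc, the brain-type aldolase, averaged 2.12 FPKM and Pfkfb4 4.42. The glucose transporter gene Slc2a3 and the collagen prolyl hydroxylase gene P4ha2 varied the most between libraries, with 33.4-fold and 30.6-fold between the highest and the lowest library. Hif1a varied the least, 1.60-fold, between 18.9 and 30.3 FPKM. The group means were highest in E9.5 embryo EC for 18 of the 34 genes, 10 of the 16 enzymes among them, and lowest in E10.5 yolk sac HE for 15 genes, 8 of them enzymes. E10.5 embryo EC held the lowest mean of 8 genes, 4 of which are hypoxia targets (Bnip3, Ndrg1, P4ha1 and P4ha2). Summed over the 16 enzymes, the level was 4425, 4075, 4825 and 5066 FPKM in yolk sac HE, against 7874, 5566, 7298 and 7716 FPKM in embryo HE. In EC the sums were 6488, 4881, 4963 and 5381 FPKM in the yolk sac, against 7160.1, 7009, 10293 and 10026 FPKM in the embryo. Every embryo sum lay above every yolk sac sum of the same cell type. Several of these enzymes (Gapdh, Aldoa, Tpi1, Pgam1, Eno1, Pkm and Ldha) have processed pseudogenes. How reads shared with these were handled is not given, so the absolute levels of these genes are uncertain.

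**Figure D1:**
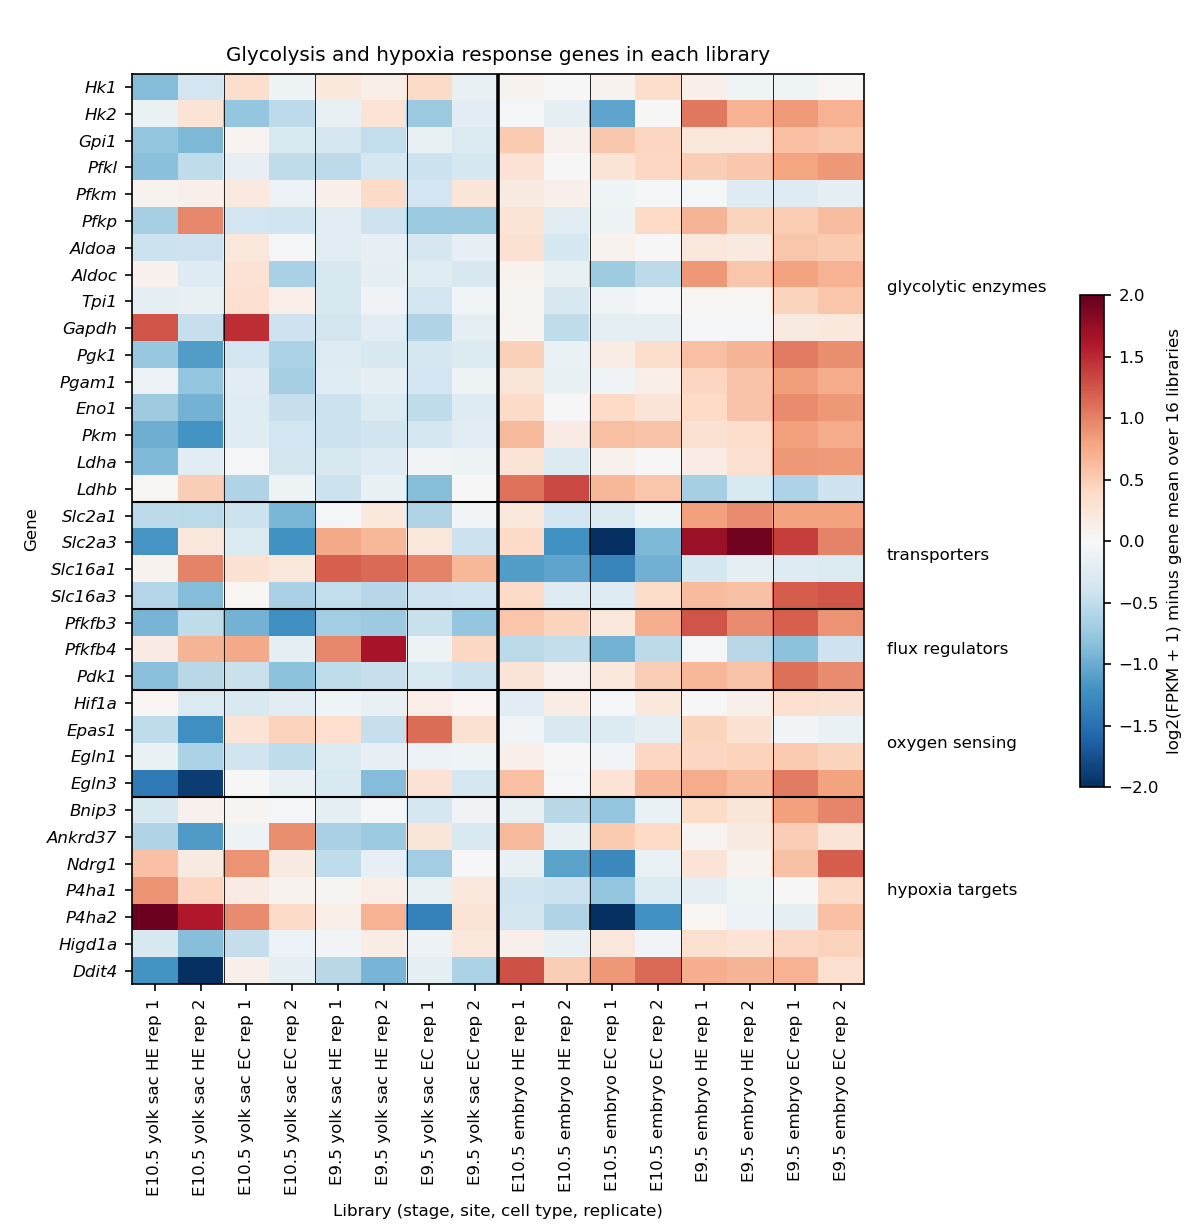
Levels of the 34 genes (rows, grouped by role) in each of the 16 libraries (columns), as log2(FPKM + 1) minus the mean of the gene over all libraries; red is above and blue below that mean. Gpi1, Pfkl, Pgk1, Eno1, Pkm, Pfkfb3 and Pdk1 are lower in each of the 8 yolk sac libraries on the left than in any of the 8 embryo libraries on the right, and Slc16a1 is higher.

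Promoter windows of 5 of the genes are shown as examples of both directions between the sites: Pgk1, Egln3 and Ddit4 were lower in yolk sac HE and EC, Slc16a1 was higher in both, and P4ha2 was higher in yolk sac HE. Each window runs from 250 bases before to 50 after a RefSeq transcription start on GRCm38.p6, whereas the deposited values were made on mm9, so the coordinates hold for GRCm38 only. Capitals mark ACGTG or GCGTG, the core sequence recognised by the hypoxia-inducible factors, on either strand (CACGT and CACGC on the strand shown), and CACGTG is a double match because it reads ACGTG on both strands. The windows are Pgk1 (chrX:106186850-106187149, plus strand), Egln3 (chr12:54203825-54204124, minus strand), Ddit4 (chr10:59951721-59952020, minus strand), Slc16a1 (chr3:104638414-104638713, plus strand) and P4ha2 (chr11:54100674-54100973, plus strand).
Pgk1: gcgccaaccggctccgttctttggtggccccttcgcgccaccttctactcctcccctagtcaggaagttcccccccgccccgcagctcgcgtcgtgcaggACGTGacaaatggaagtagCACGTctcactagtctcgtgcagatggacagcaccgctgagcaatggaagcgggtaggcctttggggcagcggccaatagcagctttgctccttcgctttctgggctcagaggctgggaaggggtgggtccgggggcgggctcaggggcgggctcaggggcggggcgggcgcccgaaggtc
Egln3: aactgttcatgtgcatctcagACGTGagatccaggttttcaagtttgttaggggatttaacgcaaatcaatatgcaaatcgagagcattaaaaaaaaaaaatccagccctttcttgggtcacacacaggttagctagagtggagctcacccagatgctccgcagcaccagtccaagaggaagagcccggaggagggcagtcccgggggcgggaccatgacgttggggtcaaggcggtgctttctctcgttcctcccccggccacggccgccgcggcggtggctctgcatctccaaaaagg
Ddit4: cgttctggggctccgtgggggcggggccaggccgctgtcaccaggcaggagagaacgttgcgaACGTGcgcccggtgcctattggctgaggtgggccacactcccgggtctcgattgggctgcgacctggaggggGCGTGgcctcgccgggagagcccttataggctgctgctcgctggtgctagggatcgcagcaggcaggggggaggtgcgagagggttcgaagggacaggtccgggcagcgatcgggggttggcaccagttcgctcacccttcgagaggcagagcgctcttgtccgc
Slc16a1: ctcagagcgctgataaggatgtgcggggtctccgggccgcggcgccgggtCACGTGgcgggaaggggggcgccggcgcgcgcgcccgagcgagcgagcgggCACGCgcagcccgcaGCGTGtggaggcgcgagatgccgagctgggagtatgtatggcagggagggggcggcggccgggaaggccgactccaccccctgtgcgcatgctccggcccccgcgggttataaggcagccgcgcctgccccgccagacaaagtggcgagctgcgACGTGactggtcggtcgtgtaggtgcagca
P4ha2: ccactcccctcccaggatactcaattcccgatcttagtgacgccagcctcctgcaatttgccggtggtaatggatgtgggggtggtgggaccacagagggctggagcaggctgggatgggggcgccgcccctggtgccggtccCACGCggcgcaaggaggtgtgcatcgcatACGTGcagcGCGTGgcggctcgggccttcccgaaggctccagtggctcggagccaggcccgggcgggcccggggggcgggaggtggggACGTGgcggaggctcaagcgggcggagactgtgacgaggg
Windows were found for 31 of the 34 genes (not Slc2a3, Epas1 or Ndrg1), 44 windows in all. ACGTG or GCGTG occurred in 37 of them (84.1%), against 43.8% of all 32851 RefSeq windows of this length. ACGTG alone occurred in 26 (59.1%, against 19.6% of all windows) and CACGTG in 6 (13.6%, against 7.15%). The windows of these genes also held more CG dinucleotides (median 22, against 7 in all windows), and both motifs contain one. The motif stood in windows of genes that were lower in the yolk sac and of genes that were higher there, as in the sequences above.

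Most of the calls among the 34 genes were between the sites, as were most of those over all tested genes. There, 5150 genes were called between the sites in HE and 4758 in EC, and the next largest comparison, HE against EC over all settings, called 1726. In yolk sac HE, 17 of the genes were lower than in embryo HE and 4 were higher (n = 4 libraries per site; 22.3% of all tested genes were called lower and 14.6% higher). In yolk sac EC, 16 were lower and 3 higher than in embryo EC (18.7% and 15.4% of all tested genes). Without both E10.5 yolk sac HE libraries, which leaves the E9.5 libraries for this comparison in HE, 14 of the 34 genes were lower in HE and 2 higher (7.57% of all tested genes were called lower and 7.65% higher). Of these 16 calls, 14 were among the 21 of the main analysis. Those of Aldoa, Ldha, Slc2a1, Ankrd37, Higd1a, P4ha1 and P4ha2 were lost. Without E9.5 embryo EC replicate 1 the calls in EC numbered 12. The median difference of the 34 genes was −0.52 in HE and −0.40 in EC, beside −0.14 and −0.10 over all tested genes, and the differences below are to be read relative to these. The comparisons in HE and in EC use separate libraries but 1 shared estimate of the spread per gene, so they are not fully independent. They shared 16 member calls, 14 lower and 2 higher, which is 76.2% of the calls in HE and 84.2% of those in EC, and none was opposite. Over all tested genes 3272 calls were shared, 63.5% of those in HE and 68.8% of those in EC. With libraries scaled by the median of ratios, which brings the median of all genes to −0.02 in HE and −0.01 in EC, 14 members were called lower and 4 higher in HE, and 14 lower and 3 higher in EC. That scaling changed the split over all genes to 2529 higher and 2200 lower in HE (2042 and 3108 as deposited) and to 2570 and 1886 in EC (2149 and 2609 as deposited). In bulk samples of sorted cells, fewer cells that express a gene and less RNA of it per cell cannot be told apart.

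**Figure D2:**
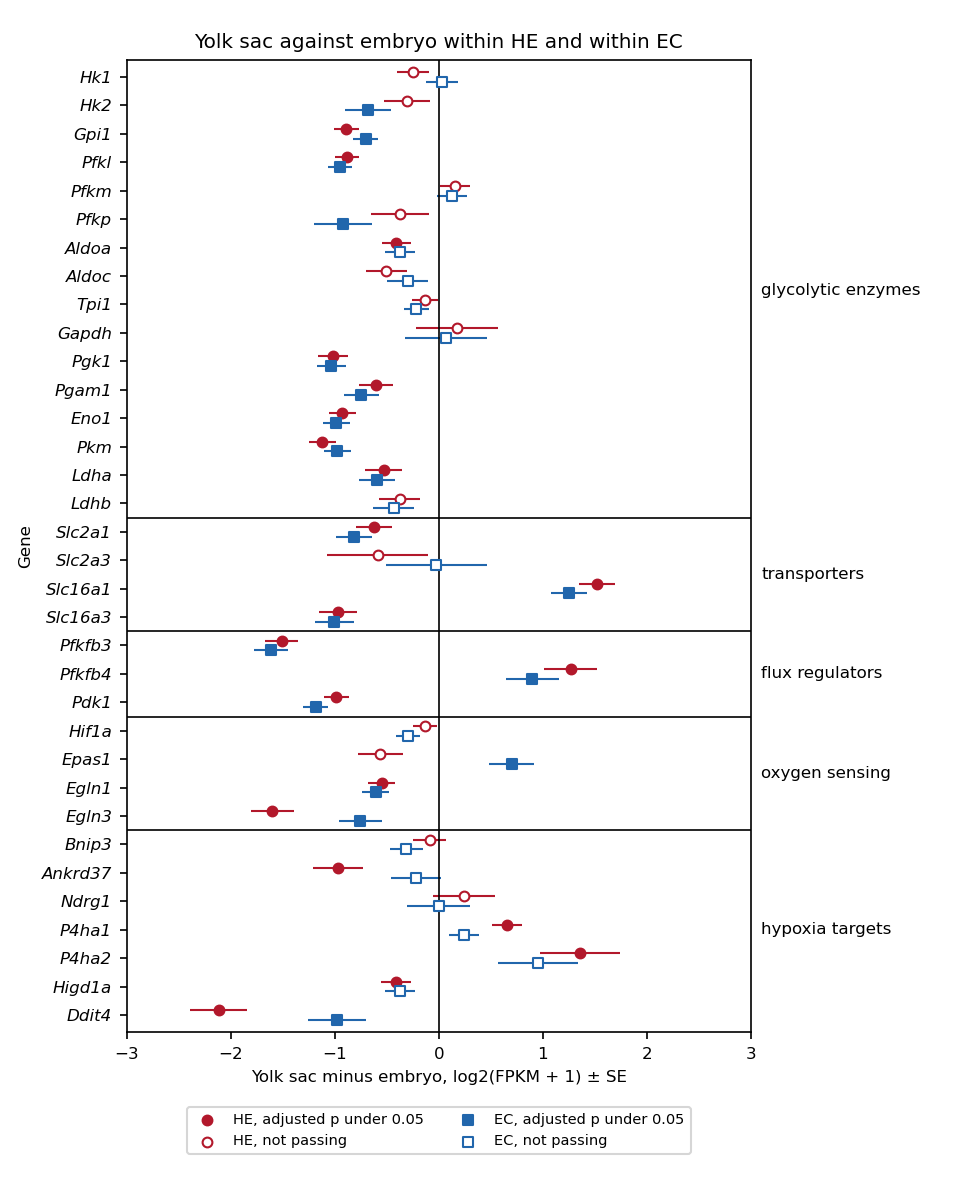
Yolk sac minus embryo difference in log2(FPKM + 1) for each of the 34 genes, in HE (circles) and EC (squares), with bars of ± 1 SE; filled symbols passed an adjusted p of 0.05. Most enzymes, Slc16a3, Pfkfb3, Pdk1, Egln3 and Ddit4 lie left of 0 in both cell types, and Slc16a1 and Pfkfb4 lie right of 0.

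Among the enzymes, 8 of 16 were lower in yolk sac HE and 9 of 16 in yolk sac EC, and none was higher in either cell type. In HE, 12 of the 34 genes were lower in every yolk sac than in every embryo library and 4 higher (16.6% and 12.3% of all tested genes), and in EC 12 were lower and 3 higher (16.2% and 13.4%). The enzymes called include both ATP-producing steps, the phosphoglycerate kinase gene Pgk1 and Pkm. Pkm had 567, 487, 827 and 849 FPKM in yolk sac HE, against 1755, 1260.1, 1376 and 1434 FPKM in embryo HE (−1.12 ± 0.13, adjusted p = 5.39e-05). In EC, Pkm had 942, 862, 881 and 962 FPKM in the yolk sac, against 1704, 1654, 1969 and 1862 FPKM in the embryo (−0.98 ± 0.13, adjusted p = 0.000177). Every yolk sac library lay below every embryo library of its cell type, and the lowest values of all were in E10.5 yolk sac HE. Pgk1 had 247, 193, 352 and 335 FPKM in yolk sac HE, against 580.4, 380.4, 637 and 671 FPKM in embryo HE (−1.01 ± 0.14, adjusted p = 0.000207). In EC, Pgk1 had 319.8, 269, 332 and 342 FPKM in the yolk sac, against 467, 534, 860.3 and 803 FPKM in the embryo (−1.03 ± 0.14, adjusted p = 0.000218). Again the sites did not overlap, and the E9.5 embryo EC libraries stood at the top.

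The enolase gene Eno1 had 437, 372, 533 and 596 FPKM in yolk sac HE, against 939.6, 720.2, 947 and 1063 FPKM in embryo HE (−0.93 ± 0.13, adjusted p = 0.000201). In EC, Eno1 had 606, 523, 502 and 597 FPKM in the yolk sac, against 949, 854, 1381 and 1304 FPKM in the embryo (−0.98 ± 0.13, adjusted p = 0.000162). The sites were apart in both cell types. Gpi1, the isomerase that makes fructose phosphate from glucose phosphate, had 166, 154, 228 and 206 FPKM in yolk sac HE, against 413, 306, 339 and 336 FPKM in embryo HE (−0.89 ± 0.12, adjusted p = 0.00016). In EC, Gpi1 had 299, 234, 261 and 235 FPKM in the yolk sac, against 419, 389, 435 and 424 FPKM in the embryo (−0.70 ± 0.12, adjusted p = 0.000962). The lowest yolk sac values were again those of E10.5 HE. Pfkl, the liver type of phosphofructokinase, had 61.8, 77.6, 76.5 and 87.1 FPKM in yolk sac HE, against 135, 111, 155 and 161 FPKM in embryo HE (−0.88 ± 0.12, adjusted p = 0.000129). In EC, Pfkl had 98.5, 77.3, 82.3 and 86.4 FPKM in the yolk sac, against 134, 147, 192 and 202 FPKM in the embryo (−0.95 ± 0.12, adjusted p = 9.06e-05). For these 3 genes no yolk sac library reached an embryo library of the same cell type. Pfkl supplied 62.7% to 80.8% of the summed FPKM of the 3 phosphofructokinase genes in the yolk sac, against 79.3% to 85.0% in the embryo. The muscle type Pfkm did not pass in either cell type (0.16 ± 0.14 in HE and 0.12 ± 0.14 in EC), and the platelet type Pfkp passed in EC (−0.92 ± 0.28, adjusted p = 0.0232). It had 11.3, 11.2, 8.57 and 8.54 FPKM in yolk sac EC, against 13.9, 20.1, 21.7 and 23.6 FPKM in embryo EC, without overlap. The Pfkp call was lost in 7 of 16 fits that each left out 1 library (highest adjusted p = 0.0854). In HE, Pfkp did not pass (−0.37 ± 0.28, adjusted p = 0.315), and E10.5 yolk sac HE replicate 2 held 30.3 FPKM and replicate 1 9.15.

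The phosphoglycerate mutase gene Pgam1 was lower in yolk sac HE (−0.61 ± 0.16, adjusted p = 0.013) and EC (−0.74 ± 0.16, adjusted p = 0.00459). Its levels were 238, 148, 217 and 227 FPKM in yolk sac HE, against 305, 232, 347 and 385 FPKM in embryo HE. In EC, Pgam1 had 222, 163, 198 and 240.3 FPKM in the yolk sac, against 242, 283, 459.7 and 433 FPKM in the embryo. The HE groups overlapped through E10.5 yolk sac replicate 1 and the EC groups did not, and the call in HE was lost without E10.5 embryo HE replicate 1 (adjusted p = 0.0547). Ldha was lower in both cell types by less, −0.53 ± 0.18 in HE (adjusted p = 0.0346) and −0.59 ± 0.18 in EC (adjusted p = 0.0223). Its levels were 813, 1297, 1207 and 1252 FPKM in yolk sac HE, against 1825, 1225, 1660.5 and 1871 FPKM in embryo HE. In EC, Ldha had 1461, 1162, 1443 and 1402 FPKM in the yolk sac, against 1595, 1506, 2746 and 2706 FPKM in the embryo, so the sites overlapped in HE and not in EC. Of 16 fits that each left out 1 library, 8 lost the Ldha call in HE (highest adjusted p = 0.131) and 5 that in EC (0.0699), and median-of-ratios scaling lost both. The HE call was also lost without both E10.5 yolk sac HE libraries (−0.52, adjusted p = 0.130). Aldoa, an abundant aldolase, had 596, 599.6, 687 and 716 FPKM in yolk sac HE, against 995, 633, 943 and 919 FPKM in embryo HE, with 3 of the embryo libraries clearly above the yolk sac. It passed in HE (−0.41 ± 0.14, adjusted p = 0.0409) but not in EC (−0.37 ± 0.14, adjusted p = 0.062), and its HE call was lost in 9 of those 16 fits (highest adjusted p = 0.150), under that scaling and without both E10.5 yolk sac HE libraries (−0.41, adjusted p = 0.217). The hexokinase gene Hk2, which traps glucose by phosphorylating it, had 6.06, 7.34, 6.20 and 9.31 FPKM in yolk sac EC, against 4.75, 10.9, 20.7 and 18.4 FPKM in embryo EC, where the E9.5 libraries were high. It passed in EC (−0.68 ± 0.22, adjusted p = 0.0344; lost in 5 of the 16 fits, highest adjusted p = 0.129, and under that scaling) but not in HE (−0.31 ± 0.22, adjusted p = 0.304). With only the libraries compared, and also without a filter, the Ldha and Aldoa calls in HE and the Hk2 call in EC were lost. The other hexokinase Hk1, the low Aldoc, the triose phosphate isomerase gene Tpi1, Gapdh and Ldhb passed in neither cell type, with differences between −0.51 (Aldoc in HE) and 0.18 (Gapdh in HE). Whether a gene that passed in 1 cell type differed between the cell types is the interaction given with the cell types below, and no member passed it.

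Gapdh, the glyceraldehyde phosphate dehydrogenase gene often used as a constant reference, was set apart by 2 libraries. It had 857, 259, 277 and 306 FPKM in yolk sac HE, against 372, 251, 353 and 350.2 FPKM in embryo HE, and 996, 269, 235 and 317 FPKM in yolk sac EC, against 315, 315, 403 and 414 FPKM in embryo EC. Both high values belong to replicate 1 of the E10.5 yolk sac, while all 14 other libraries lay between 235 and 414 FPKM. Of the 13955 tested genes only Gapdh, H2-Q1 and Gm10163 reached at least 2 times every other library in both of these. Without both libraries the Gapdh difference was −0.25 in HE (adjusted p = 0.216; 0.18 ± 0.40, adjusted p = 0.753 with them) and −0.40 in EC (adjusted p = 0.0740; 0.07 ± 0.40, adjusted p = 0.914 with them). Without Gapdh the summed enzyme level was 3568, 3816, 4548 and 4759.8 FPKM in yolk sac HE, against 7502, 5315, 6944 and 7366 FPKM in embryo HE.

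The transporters moved in opposite directions. Slc16a3, a monocarboxylate transporter that exports lactate from glycolytic cells, had 95.2, 78.5, 102 and 97.1 FPKM in yolk sac HE, against 189, 120.3, 224 and 218 FPKM in embryo HE (−0.97 ± 0.19, adjusted p = 0.00185). In EC, Slc16a3 had 148, 91.4, 108 and 109 FPKM in the yolk sac, against 120.1, 187, 334 and 347 FPKM in the embryo (−1.0 ± 0.19, adjusted p = 0.00165). The HE groups did not overlap, and in EC E10.5 yolk sac replicate 1 exceeded E10.5 embryo replicate 1. Slc16a1, a monocarboxylate transporter that also takes lactate and pyruvate up, had 35.0, 67.6, 78.0 and 74.1 FPKM in yolk sac HE, against 14.9, 15.6, 26.0 and 29.3 FPKM in embryo HE (1.52 ± 0.17, adjusted p = 5.09e-05). In EC, Slc16a1 had 41.4, 39.1, 67.4 and 53.3 FPKM in the yolk sac, against 12.6, 16.6, 27.8 and 27.3 FPKM in the embryo (1.25 ± 0.17, adjusted p = 0.000246). Here every yolk sac library lay above every embryo library. Slc16a1 made up 21.9% to 46.3% of the summed FPKM of this pair in the 8 yolk sac libraries, against 7.27% to 11.9% in the 8 embryo libraries.

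Slc2a1, the main glucose transporter of endothelium, had 362, 359, 516 and 604 FPKM in yolk sac HE, against 614, 402, 921 and 1009 FPKM in embryo HE (−0.62 ± 0.17, adjusted p = 0.0142). In EC, Slc2a1 had 388, 277, 344 and 504 FPKM in the yolk sac, against 427, 495, 917 and 917 FPKM in the embryo (−0.81 ± 0.17, adjusted p = 0.00352). The sites overlapped in both cell types. Its call in HE was lost without both E10.5 yolk sac HE libraries (−0.79, adjusted p = 0.0584), without E9.5 yolk sac HE replicate 1 and without E10.5 embryo HE replicate 1 (highest adjusted p = 0.0603). Slc2a3, a transporter of higher affinity, did not pass (−0.59 ± 0.49 in HE and −0.02 ± 0.49 in EC), and its replicates were far apart in several groups, with 244 and 80.7 FPKM in E10.5 embryo HE.

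All 3 flux regulators were called in both cell types, with both directions among them. Pfkfb3 and Pfkfb4 encode enzymes that make and break the sugar phosphate that activates phosphofructokinase, and in Pfkfb3 the activity that makes it prevails. Pfkfb3 had 3.99, 5.69, 4.85 and 4.70 FPKM in yolk sac HE, against 12.9, 11.9, 21.6 and 17.2 FPKM in embryo HE (−1.51 ± 0.16, adjusted p = 3.19e-05). In EC, Pfkfb3 had 3.94, 3.04, 5.93 and 4.51 FPKM in the yolk sac, against 10.1, 14.7, 20.6 and 16.7 FPKM in the embryo (−1.61 ± 0.16, adjusted p = 2.17e-05). Pfkfb4 had 4.31, 6.65, 8.23 and 13.9 FPKM in yolk sac HE, against 2.26, 2.41, 3.61 and 2.25 FPKM in embryo HE (1.27 ± 0.25, adjusted p = 0.00238). In EC, Pfkfb4 had 7.03, 3.21, 3.43 and 5.35 FPKM in the yolk sac, against 1.48, 2.32, 1.69 and 2.58 FPKM in the embryo (0.90 ± 0.25, adjusted p = 0.0177). Neither gene overlapped between the sites in either cell type, but the Pfkfb4 call in EC was lost without E9.5 embryo EC replicate 1, E9.5 yolk sac EC replicate 2 or replicate 1 of E10.5 embryo or yolk sac EC (highest adjusted p = 0.0726). Pfkfb4 supplied 36.7% to 74.7% of the summed FPKM of the pair in the yolk sac, against 7.55% to 16.8% in the embryo. Pdk1, the kinase that blocks entry of pyruvate into the mitochondrial cycle, had 15.7, 19.4, 20.0 and 20.7 FPKM in yolk sac HE, against 34.9, 30.9, 46.1 and 43.4 FPKM in embryo HE (−0.99 ± 0.12, adjusted p = 7.15e-05). In EC, Pdk1 had 21.1, 16.0, 23.3 and 21.3 FPKM in the yolk sac, against 33.8, 40.9, 63.2 and 56.4 FPKM in the embryo (−1.18 ± 0.12, adjusted p = 2.09e-05), again without overlap.

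**Figure D3:**
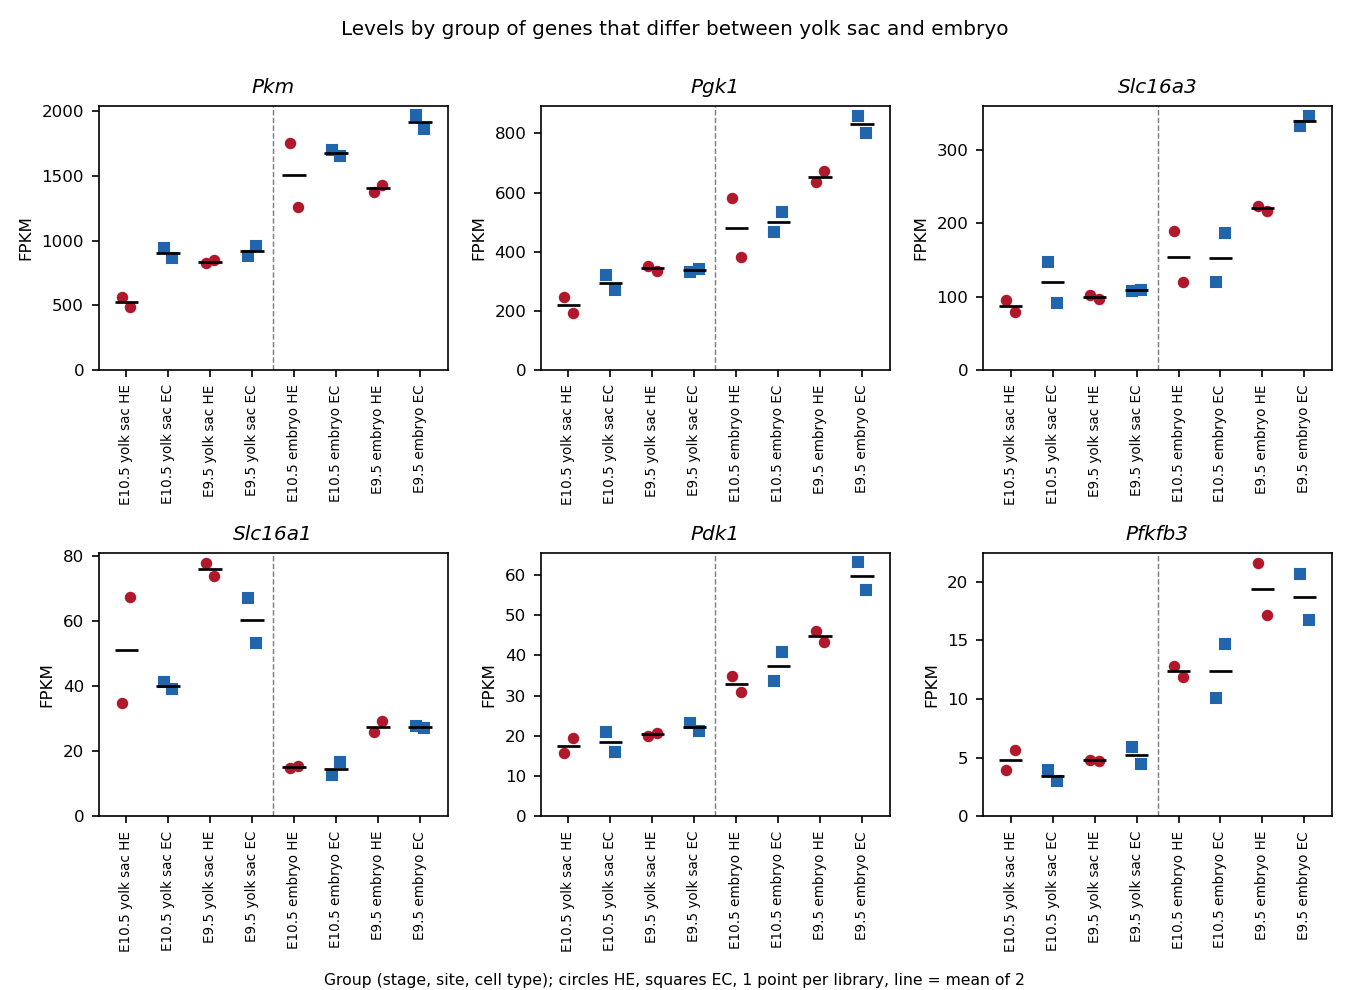
FPKM of Pkm, Pgk1, Slc16a3, Slc16a1, Pdk1 and Pfkfb3 by group, with 1 point per library (circles HE, squares EC) and a line at the mean of 2; the dashed line separates yolk sac groups on the left from embryo groups on the right. Pkm, Pgk1, Pdk1 and Pfkfb3 are lower in all 8 yolk sac libraries than in any embryo library, and Slc16a1 is higher.

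Of the oxygen-sensing genes, Hif1a, the alpha subunit found in most cells, had 19.2 to 24.3 FPKM in yolk sac HE, against 20.3 to 26.3 FPKM in embryo HE, and did not pass in HE (−0.13 ± 0.11, adjusted p = 0.397) or EC (−0.29 ± 0.11, adjusted p = 0.0681). Epas1, the alpha subunit that is abundant in endothelium, had 37.0, 42.3, 67.6 and 38.1 FPKM in yolk sac EC, against 25.1, 26.9, 29.3 and 27.7 FPKM in embryo EC (0.70 ± 0.22, adjusted p = 0.027), without overlap. In HE, Epas1 had 21.2, 12.4, 38.8 and 21.9 FPKM in the yolk sac, against 29.3, 24.5, 41.8 and 37.9 FPKM in the embryo (−0.56 ± 0.22, adjusted p = 0.0624), so the sign of the difference was opposite and the HE groups overlapped. The EC call was lost in 6 of the 16 fits with 1 library left out (highest adjusted p = 0.102). Egln1, the prolyl hydroxylase that acts as the main oxygen sensor, was lower in the yolk sac without overlap, with 23.0, 16.1, 20.9 and 22.6 FPKM in yolk sac HE, against 27.3, 25.2, 34.7 and 35.4 FPKM in embryo HE (−0.55 ± 0.13, adjusted p = 0.00662). In EC, Egln1 had 19.1, 17.6, 23.5 and 24.0 FPKM in the yolk sac, against 24.4, 34.4, 36.8 and 35.0 FPKM in the embryo (−0.61 ± 0.13, adjusted p = 0.00402). The gap between the EC groups was narrow. Egln3, a hydroxylase that is itself induced by low oxygen, had 3.83, 2.42, 9.38 and 6.02 FPKM in yolk sac HE, against 18.4, 11.4, 20.4 and 18.8 FPKM in embryo HE (−1.60 ± 0.21, adjusted p = 0.00012), the E10.5 yolk sac libraries being lowest. In EC, Egln3 had 11.7, 10.6, 14.7 and 9.02 FPKM in the yolk sac, against 14.5, 19.3, 25.5 and 21.4 FPKM in the embryo (−0.75 ± 0.21, adjusted p = 0.0151), where 1 yolk sac library overlapped the embryo. The EC call was lost without E9.5 embryo EC replicate 1, E9.5 yolk sac EC replicate 2 or E10.5 embryo EC replicate 2 (highest adjusted p = 0.0601).

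The 7 hypoxia targets did not move as 1 group. In HE, 3 were lower in the yolk sac (Ankrd37, Higd1a and Ddit4) and 2 higher (P4ha1 and P4ha2), and in EC 1 was lower (Ddit4) and none higher. Ddit4, an inhibitor of mTOR signalling that is induced by low oxygen and other stresses, had 9.27, 2.84, 15.1 and 11.5 FPKM in yolk sac HE, against 56.3, 32.2, 38.2 and 36.8 FPKM in embryo HE (−2.12 ± 0.28, adjusted p = 0.000125). In EC, Ddit4 had 24.3, 20.0, 19.9 and 14.3 FPKM in the yolk sac, against 42.3, 51.0, 37.1 and 28.6 FPKM in the embryo (−0.98 ± 0.28, adjusted p = 0.0171). The sites did not overlap in either cell type, although the EC call was lost without E9.5 embryo EC replicate 1, E9.5 yolk sac EC replicate 2 or replicate 2 of E10.5 embryo or yolk sac EC (highest adjusted p = 0.0659). P4ha1 and P4ha2 encode catalytic subunits of the enzyme that hydroxylates proline in collagen. P4ha2 had 216, 167, 58.8 and 88.9 FPKM in yolk sac HE, against 42.0, 35.5, 56.1 and 49.98 FPKM in embryo HE (1.35 ± 0.39, adjusted p = 0.0167). P4ha1 had 132, 94.7, 72.6 and 76.9 FPKM in yolk sac HE, against 53.0, 51.7, 61.0 and 66.0 FPKM in embryo HE (0.66 ± 0.15, adjusted p = 0.00475). For P4ha1 and P4ha2 every yolk sac HE library lay above every embryo HE library, and the E10.5 yolk sac was highest. Without both E10.5 yolk sac HE libraries the differences were 0.44 for P4ha2 (adjusted p = 0.652) and 0.23 for P4ha1 (adjusted p = 0.458), and neither was called. The P4ha2 call was also lost without E9.5 yolk sac HE replicate 2 or E10.5 embryo HE replicate 2 (highest adjusted p = 0.0607). In EC, P4ha2 had 106, 71.2, 20.6 and 66.2 FPKM in the yolk sac, against 7.04, 23.1, 47.7 and 82.8 FPKM in the embryo, with overlap, and did not pass (0.96 ± 0.39, adjusted p = 0.0751). Ankrd37, an ankyrin repeat gene known as a target of the hypoxia-inducible factors, had 7.57, 4.93, 7.29 and 6.76 FPKM in yolk sac HE, against 19.4, 10.7, 12.6 and 13.8 FPKM in embryo HE (−0.97 ± 0.24, adjusted p = 0.00845). The groups did not overlap, but the call was lost without both E10.5 yolk sac HE libraries (−0.82, adjusted p = 0.131). Higd1a, a mitochondrial gene, had 21.1, 14.3, 25.5 and 29.6 FPKM in yolk sac HE, against 28.8, 24.0, 33.5 and 32.5 FPKM in embryo HE (−0.41 ± 0.14, adjusted p = 0.0423). Its groups overlapped, and 8 of the 16 fits with 1 library left out lost it (highest adjusted p = 0.148), as did leaving out both E10.5 yolk sac HE libraries (−0.26, adjusted p = 0.372). The Higd1a call was also lost with only the libraries compared, without a filter, with median-of-ratios scaling and with the replicate number as a block. Bnip3, a mitophagy receptor, and Ndrg1, a stress response gene, passed in neither cell type.

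Markers of other cell types differed between the sites as well. Visceral endoderm, the absorptive epithelium of the yolk sac, was marked by 8 genes (among them Afp, Ttr and Apob), and their summed FPKM was 3963 to 8987 in yolk sac HE, against 6.39 to 71.6 in embryo HE, and 1918 to 7219 in yolk sac EC, against 3.56 to 78.9 in embryo EC. All 8 were called higher in both cell types. Apoa4 was listed at 0 in all 4 E10.5 embryo libraries, and no marker was at 0 throughout a yolk sac group. All 8 erythroid markers, such as the embryonic globin gene Hbb-y, were also higher in both, with sums of 21739 to 53958 in yolk sac HE, against 6668 to 11833 in embryo HE, and 14128 to 54943 in yolk sac EC, against 1887 to 10712 in embryo EC. No erythroid marker was at 0 throughout any group. The 8 endothelial markers were lower in yolk sac HE (7 of 8 called, 167 to 1454, against 1548 to 2087 in embryo HE) and overlapped in EC (1 of 8 called lower, 1277 to 2384, against 1720 to 2467). Among the sort genes, Itga2b encodes CD41, which both gates left out. It had 31.5 to 58.5 FPKM in yolk sac EC, against 3.88 to 9.61 in embryo EC. In HE it had 8.12 to 49.3 FPKM in the yolk sac, against 5.99 to 16.8 in the embryo. Kit went the other way, with 2.70 to 8.03 FPKM in yolk sac EC, against 7.55 to 11.1 in embryo EC. In HE, Kit had 1.66 to 5.66 FPKM in the yolk sac, against 8.79 to 16.0 in the embryo. Mesenchymal markers (7 genes) summed to 2163 to 6414 in yolk sac HE, against 714 to 1093 in embryo HE, and 658 to 3693 in yolk sac EC, against 111 to 1660.4 in embryo EC, with Col1a1 listed at 0 in both E10.5 yolk sac HE libraries. Of the 7 mesenchymal markers 4 were called higher and 1 lower (Col1a1) in HE, and 4 higher in EC. Most tested markers of tissues of the embryo body were lower in the yolk sac. Of 7 tested somite and muscle markers, 5 were lower in HE (median −1.86) and 5 lower and 1 higher in EC (median −1.37), and all 4 tested neural markers were lower in both (medians −1.93 in HE and −1.20 in EC). The somite and muscle sums were not lower, with 480 to 953 FPKM in yolk sac HE, against 325 to 562 in embryo HE. In EC they were 128 to 678 in the yolk sac, against 187 to 383 in the embryo. Acta2 of this list had 345 to 707 FPKM in yolk sac HE, against 151 to 303 in embryo HE. The neural sums were 0 to 0.446 FPKM in yolk sac HE, against 9.43 to 22.5 in embryo HE, and 0 to 1.06 in yolk sac EC, against 5.40 to 20.9 in embryo EC. All 4 germ cell markers were lower in both, with sums of 0 to 0.854 in yolk sac HE, against 1.14 to 25.5 in embryo HE, and 0.469 to 3.80 in yolk sac EC, against 17.8 to 191 in embryo EC. Of 5 tested macrophage markers, 2 were higher in yolk sac HE and 4 in yolk sac EC. Of 10 genes induced by tissue handling, 2 were higher and 4 lower in yolk sac HE, and 3 higher and 1 lower in yolk sac EC. The part of these cells in the differences of the glycolysis and hypoxia genes was not tested.

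The remaining glycolysis genes of the same pathway included isoforms of liver, kidney and intestine. Of 28 listed isoforms and relatives, 23 were tested; 10 were higher and 6 lower in yolk sac HE than in embryo HE, and 9 were higher and 1 lower in yolk sac EC than in embryo EC. Slc2a2, the liver-type glucose transporter, had 13.7, 34.5, 31.6 and 25.8 FPKM in yolk sac HE, against 0, 0.127, 0.0429 and 0.284 FPKM in embryo HE (4.55 ± 0.25, adjusted p = 2.17e-07), and the difference in EC was 3.97 ± 0.25, adjusted p = 6.38e-07. Hkdc1, a hexokinase relative, averaged 17.9 FPKM in yolk sac HE, against 0.183 FPKM in embryo HE (3.89 ± 0.25), and the difference in EC was 3.21 ± 0.25. Pklr, the pyruvate kinase of liver and red cells, averaged 22.8 FPKM in yolk sac EC, against 3.53 FPKM in embryo EC (2.34 ± 0.42). These genes were high in the same 8 libraries as the visceral endoderm markers and the erythroid markers, and which cells held their RNA was not tested. Of 36 other genes of the hypoxia-inducible factor axis, 35 were tested; 4 were higher and 8 lower in HE, and 5 were higher and 8 lower in EC, with Lox, a collagen cross-linking enzyme, at 40.1 FPKM in yolk sac HE, against 1.90 FPKM in embryo HE (3.42 ± 0.40, adjusted p = 5.83e-05). Of 30 tested genes of pyruvate entry and the mitochondrial cycle, 7 were higher and none lower in yolk sac HE, and 3 were higher and 4 lower in yolk sac EC, with medians of 0.07 in HE and −0.07 in EC. Of 8 pentose phosphate genes, 1 was higher and 3 lower in HE, and 1 was higher and 2 lower in EC.

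**Figure D4:**
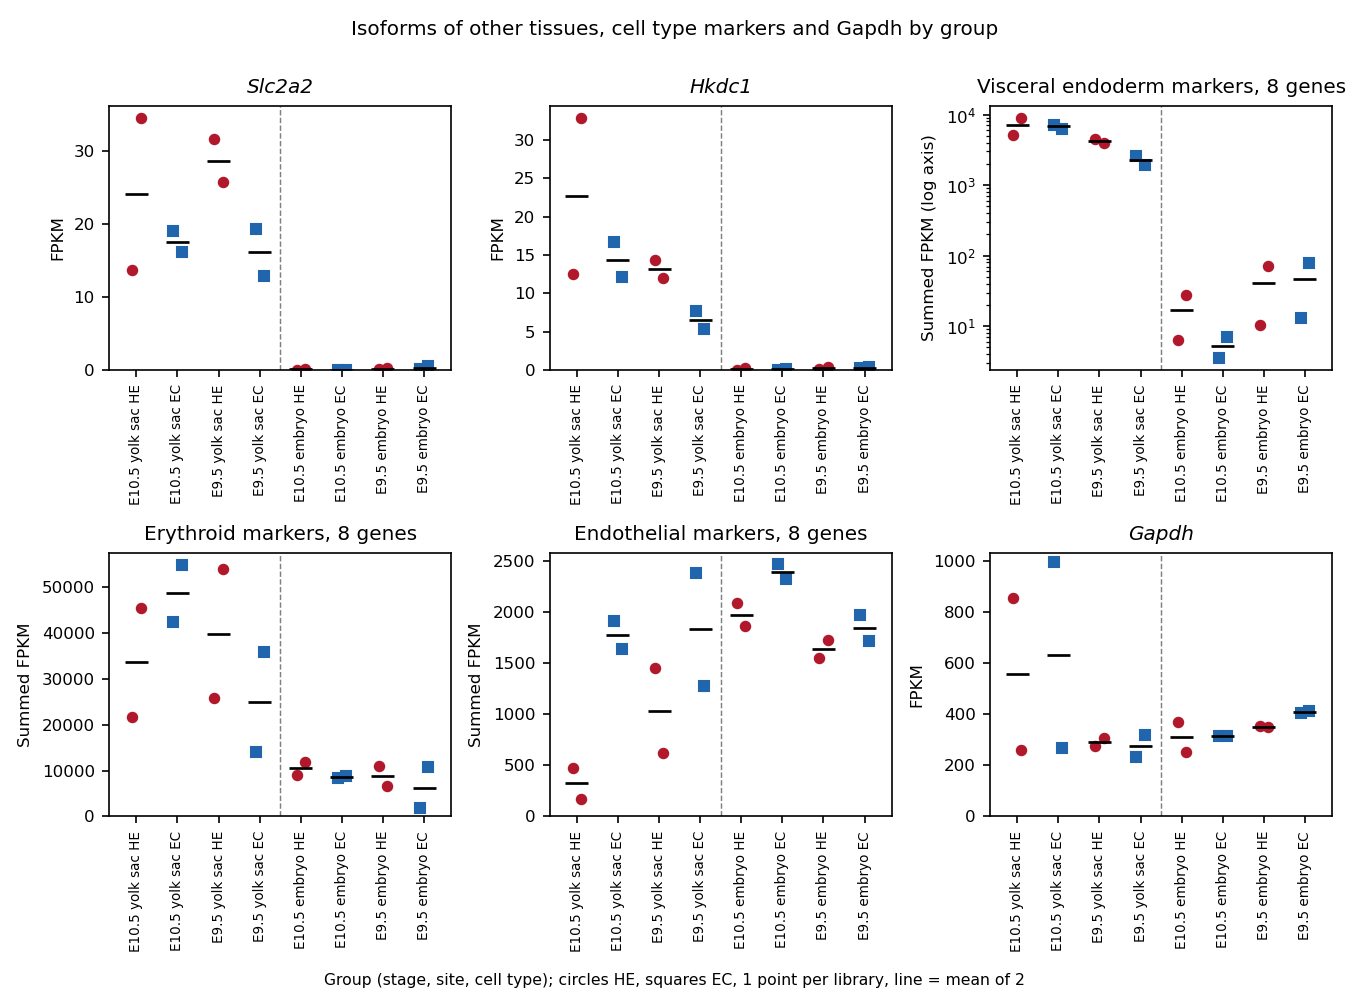
Levels by group of Slc2a2, Hkdc1, the summed visceral endoderm, erythroid and endothelial markers (8 genes each) and Gapdh, with 1 point per library (circles HE, squares EC) and a line at the mean of 2; the visceral endoderm panel has a log axis. Slc2a2 is above 10 FPKM in all 8 yolk sac libraries and below 1 in all 8 embryo libraries, and the 2 high Gapdh points are both replicate 1 libraries of the E10.5 yolk sac.

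Hemogenic and other endothelium differed in 4 of the 34 genes over all settings, beside 12.4% of all tested genes called in either direction. Averaged over the stages and sites (n = 8 libraries per cell type), 4 genes were lower in HE and none higher (5.67% and 6.7% of all tested genes), and no gene of the 34 separated all HE from all EC libraries (0.129% of all tested genes did so as higher and 0.0215% as lower). The 4 were Gpi1 (−0.36 ± 0.08, adjusted p = 0.0242), Pkm (−0.38 ± 0.09, adjusted p = 0.0251), Egln3 (−0.64 ± 0.15, adjusted p = 0.0226) and Ankrd37 (−0.60 ± 0.17, adjusted p = 0.0413). Without both E10.5 yolk sac HE libraries none of them passed, with adjusted p of 0.182 for Gpi1, 0.185 for Pkm, 0.254 for Egln3 and 0.274 for Ankrd37. The calls over all tested genes fell as well, to 2.01% higher and 0.566% lower. Leaving out single libraries gave between 0 calls (without E9.5 embryo EC replicate 1, E9.5 embryo HE replicate 1, E9.5 yolk sac HE replicate 2 or E10.5 embryo HE replicate 2) and 8 calls (without E10.5 yolk sac HE replicate 1). The largest differences that did not pass were those of P4ha2 (0.83 ± 0.27, adjusted p = 0.0652) and Slc2a3 (0.82 ± 0.34, adjusted p = 0.131). Of the other hypoxia axis genes, 3 were higher and 1 lower in HE, among them Cited2, a HIF-induced inhibitor of HIF activity (0.80 ± 0.17, adjusted p = 0.017), and the heme oxygenase gene Hmox1 (−0.53 ± 0.13). Of the other glycolysis genes, 1 was higher and 1 lower (Pgm1, −0.72 ± 0.13). Endothelial markers were lower in HE in the same comparison (7 of 8 called, median −0.99), as were all 4 germ cell markers (median −1.33) and 3 of the 10 genes of tissue handling (median −0.48). Of the 7 mesenchymal markers, 3 were higher and 1 lower in HE (median 0.89), of 5 macrophage markers 1 was higher and 1 lower, and of 4 neural markers 1 was higher. The mesenchymal marker called lower was Col1a1, with its 0 in both E10.5 yolk sac HE libraries. No visceral endoderm, erythroid or somite and muscle marker was called. The part of these cells in the differences was not tested.

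Within the single stages and sites, the E9.5 embryo, the E9.5 yolk sac and the E10.5 embryo gave no call among the 34 genes by limma (0.158%, 0.0143% and 0.208% of all tested genes were called in either direction, and in the E10.5 embryo 0.0860% as higher), and 7, 2 and 2 members had an unadjusted p under 0.05, which is held by 8.78%, 9.57% and 7.37% of all tested genes. In the E9.5 embryo, 12 of the 16 enzymes lay below 0, with a median of −0.30, against 0.03 over all genes. The largest differences there, none of which passed, were those of Ndrg1 (−0.72), Slc2a3 (0.64), Ldha (−0.63) and Slc16a3 (−0.62). In the E10.5 yolk sac, 6 genes were lower in HE and none was higher (6.48% and 3.09% of all tested genes, 9.57% in either direction). Ddit4 had 9.27 and 2.84 FPKM in HE, against 24.3 and 20.0 FPKM in EC (−1.87 ± 0.39, adjusted p = 0.0162). Egln3 had 3.83 and 2.42 FPKM in HE, against 11.7 and 10.6 FPKM in EC (−1.58 ± 0.29, adjusted p = 0.0111), and Ankrd37 7.57 and 4.93 FPKM in HE, against 11.2 and 24.0 FPKM in EC (−1.29 ± 0.34, adjusted p = 0.037). Epas1 had 21.2 and 12.4 FPKM in HE, against 37.0 and 42.3 FPKM in EC (−1.23 ± 0.31, adjusted p = 0.0304). Beside these 4 genes of oxygen sensing and its targets, Pkm (−0.78 ± 0.18, adjusted p = 0.0247) and Gpi1 (−0.72 ± 0.17, adjusted p = 0.0247) were called lower in HE. All 6 calls were lost when only these 4 libraries were fitted, with library quality weights, without E10.5 yolk sac EC replicate 1 and without E10.5 yolk sac HE replicate 2. With only these 4 libraries, and likewise with those weights, 1 of all tested genes was called (1335 in the main analysis). Without E10.5 yolk sac EC replicate 2, only Gpi1 and Egln3 of the 6 passed. All 8 endothelial markers were also lower in E10.5 yolk sac HE (median −2.63, summed FPKM 167 to 479 in HE, against 1639 to 1910 in EC), as were 3 of the 10 genes of tissue handling (median −1.0), 1 of 7 mesenchymal, 1 of 5 macrophage and 1 of 7 somite and muscle markers. The lower mesenchymal marker was Col1a1, listed at 0 in both HE libraries. The mesenchymal sum went the other way, with 5236 to 6414 FPKM in HE, against 2881 to 3693 in EC. The part of these cell types in the 6 differences was not tested.

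The difference between HE and EC was not shown to depend on the site or on the stage for any member. By limma, none of the 34 passed the interaction with site (0.107% of all tested genes did, 0.0788% as lower), with 4 at an unadjusted p under 0.05 (12.4% of all tested genes), and none passed that with stage (0.0287%, and 0.00717% as higher), with 3 at an unadjusted p under 0.05 (6.36% of all tested genes). For Epas1, whose site difference had opposite signs in the 2 cell types, the interaction was −1.26 ± 0.31 (adjusted p = 0.157), and for Ddit4 −1.14 ± 0.39 (adjusted p = 0.27). Without E10.5 yolk sac HE replicate 1, 3 members passed the interaction with site.

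Between the stages, 2 genes were called in HE and none in EC. In HE (n = 4 libraries per stage), Ldhb was higher at E10.5 and Slc2a1 lower (1.20% and 1.08% of all tested genes were called higher and lower, 2.28% in all). Ldhb encodes the lactate dehydrogenase subunit that favours pyruvate. In HE, Ldhb had 38.6 and 45.7 FPKM in the E10.5 embryo and 18.1 and 25.3 FPKM in the E10.5 yolk sac, against 10.8 and 14.1 FPKM in the E9.5 embryo and 12.8 and 15.8 FPKM in the E9.5 yolk sac (1.12 ± 0.20, adjusted p = 0.0147). All E10.5 libraries lay above all E9.5 libraries (0.982% of all tested genes did so), but Ldhb stayed at or below 3.60% of the summed FPKM of Ldha and Ldhb in every library. The call was lost without E9.5 embryo HE replicate 1, E9.5 yolk sac HE replicate 1 or E10.5 embryo HE replicate 2 (highest adjusted p = 0.0736). Slc2a1 had 359 to 614 FPKM in E10.5 HE, against 516 to 1009 FPKM in E9.5 HE (−0.79 ± 0.17, adjusted p = 0.039), with overlap, and was not called in 10 of the 16 fits with 1 library left out (highest adjusted p = 0.124), nor without both E10.5 yolk sac HE libraries (−0.96, adjusted p = 0.0884). Without E10.5 yolk sac HE replicate 1, 8 members were called in HE. Of the genes of pyruvate entry, Mpc1, a subunit of the mitochondrial pyruvate carrier, was higher at E10.5 (0.72 ± 0.14, adjusted p = 0.0233). In HE no endothelial marker was called between the stages (median −0.80), 2 of 3 tested sort genes and 1 of 7 mesenchymal markers were lower at E10.5, and 2 of 5 macrophage and 1 of 7 somite and muscle markers were higher. The lower mesenchymal marker was Col1a1, listed at 0 in both E10.5 yolk sac HE libraries. In EC, 3 of 4 germ cell markers (median 1.27), 2 of 5 macrophage and 1 of 7 somite and muscle markers were higher at E10.5, and none of the 8 endothelial markers was called (median 0.22). The part of these cells in the stage differences was not tested.

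Slc2a3 had the largest stage difference in both cell types without passing (−1.72 ± 0.49, adjusted p = 0.0927 in HE and −1.91 ± 0.49, adjusted p = 0.069 in EC). In HE, Slc2a3 had 244 and 80.7 FPKM in the E10.5 embryo and 81.8 and 220.1 FPKM in the E10.5 yolk sac, against 623 and 714 FPKM in the E9.5 embryo and 317 and 298 FPKM in the E9.5 yolk sac. Every E10.5 library was below every E9.5 library in HE (2.21% of all tested genes did so), and in EC they overlapped. No member separated the stages in EC (1.49% of all tested genes did as higher and 3.37% as lower). In EC, 16 of the 34 genes had an unadjusted p under 0.05 by limma, as had 18.4% of all tested genes, and none passed after adjustment (1.06% of all tested genes were called higher and 0.960% lower, 2.02% in all). Without E10.5 embryo EC replicate 2, or without either of the E10.5 yolk sac HE libraries, 3 members passed in EC. Scaling by the median of ratios moved the split of all stage calls to 238 higher and 89 lower in HE (167 and 151 as deposited) and to 195 and 84 in EC (148 and 134 as deposited). Under it Slc2a1 was no longer called (−0.68, adjusted p = 0.0697).

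The stage difference itself depended on the site for 6 of the 34 genes, 5 of which moved upward in the yolk sac relative to the embryo and 1 downward (2.87% and 2.47% of all tested genes, 5.34% in all). The 5 were P4ha2 (2.61 ± 0.54, adjusted p = 0.0228), Ndrg1 (1.99 ± 0.42, adjusted p = 0.0256), Aldoc (1.20 ± 0.28, adjusted p = 0.0338), Bnip3 (1.11 ± 0.22, adjusted p = 0.0205) and P4ha1 (0.83 ± 0.21, adjusted p = 0.0433), 4 of which are hypoxia targets, and the 1 was Ldhb (−1.10 ± 0.28, adjusted p = 0.0435). For Ndrg1, E10.5 minus E9.5 was 0.71 in yolk sac HE and 0.88 in yolk sac EC, against −0.79 in embryo HE and −1.60 in embryo EC. Its levels in EC were 31.5 and 18.8 FPKM in the E10.5 yolk sac and 9.88 and 16.6 FPKM in the E9.5 yolk sac, against 6.21 and 15.0 FPKM in the E10.5 embryo and 25.3 and 39.5 FPKM in the E9.5 embryo. Ndrg1 was thus higher at E10.5 in the yolk sac and at E9.5 in the embryo, in both replicates of EC. For P4ha2, E10.5 minus E9.5 was 1.38 in yolk sac HE and 1.20 in yolk sac EC, against −0.45 in embryo HE and −2.20 in embryo EC. It reached 216 and 167 FPKM in E10.5 yolk sac HE and was lowest in E10.5 embryo EC, with 7.04 and 23.1 FPKM. For Bnip3 it was −0.01 in yolk sac HE and 0.21 in yolk sac EC, against −0.65 in embryo HE and −1.36 in embryo EC. In embryo EC, Bnip3 had 21.4 and 34.2 FPKM at E10.5 and 66.9 and 75.3 FPKM at E9.5. For Aldoc, at low levels, the stage difference was 0.18 in yolk sac HE and 0.10 in yolk sac EC, against −0.75 in embryo HE and −1.37 in embryo EC. For Ldhb it was 0.55 in yolk sac HE and 0.06 in yolk sac EC, against 1.69 in embryo HE and 1.12 in embryo EC.

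**Figure D5:**
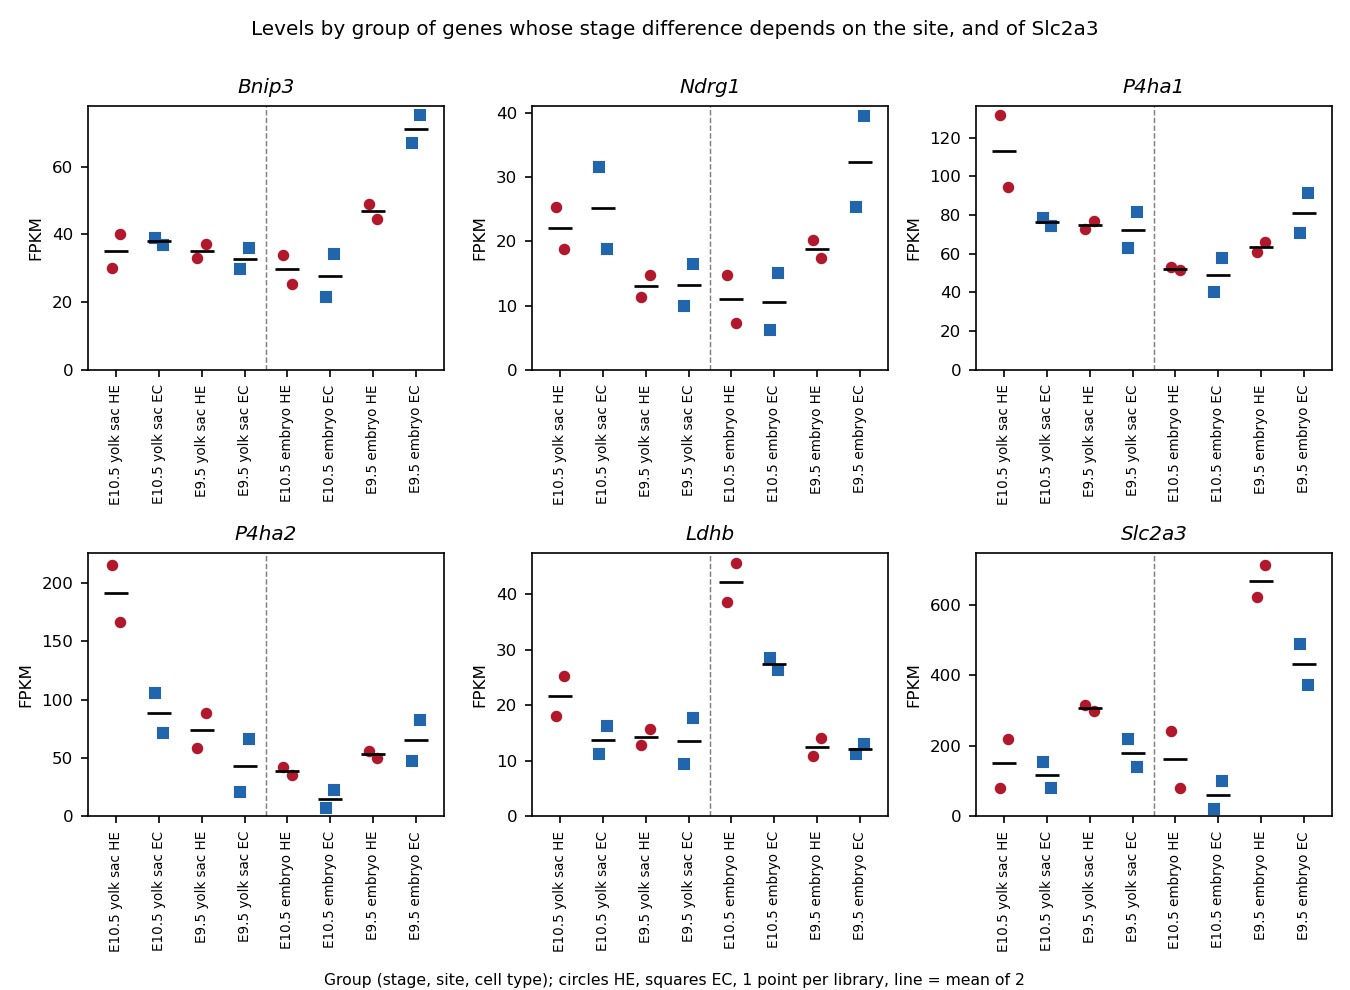
FPKM of Bnip3, Ndrg1, P4ha1, P4ha2, Ldhb and Slc2a3 by group, with 1 point per library (circles HE, squares EC) and a line at the mean of 2; the dashed line separates yolk sac groups on the left from embryo groups on the right, E10.5 before E9.5. In the embryo, Bnip3, Ndrg1 and P4ha2 are lower at E10.5 than at E9.5 in EC, and Ldhb is higher, while P4ha2 is highest in E10.5 yolk sac HE.

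These 6 calls rested on few libraries. Without both E10.5 yolk sac HE libraries only Bnip3 was called, and without any 1 of E9.5 embryo EC replicate 2, E9.5 embryo HE replicate 1, E9.5 yolk sac HE replicate 1, E10.5 embryo HE replicate 2 or E10.5 yolk sac EC replicate 1 none was. Without E10.5 yolk sac HE replicate 1 there were 9 calls. With the median-of-ratios scaling 8 members were called, all upward, and Ldhb was not (−0.94, adjusted p = 0.0815); over all genes that scaling gave 563 upward and 195 downward calls (401 and 344 as deposited). Mesenchymal markers, collagen genes among them, summed to 5236 to 6414 FPKM in E10.5 yolk sac HE and 2881 to 3693 in E10.5 yolk sac EC, against 855 to 1016 in E10.5 embryo HE and 111 to 463 in E10.5 embryo EC. At E9.5 the sums were 2163 to 3710 in yolk sac HE and 658 to 2724 in yolk sac EC, against 714 to 1093 in embryo HE and 618 to 1660.4 in embryo EC. All 4 germ cell markers were called downward in this interaction, as were 1 neural, 1 mesenchymal and 1 somite and muscle marker, while 1 mesenchymal, 1 macrophage and 1 visceral endoderm marker were called upward. The downward mesenchymal marker was Col1a1. It was listed at 0 in both E10.5 yolk sac HE libraries, where Col1a2 had 2982 and 3015 FPKM, so it added nothing to their mesenchymal sums. The part of these cells in the 6 differences was not tested. Among the other hypoxia genes, Lox (2.25) and Loxl2 (1.27), both genes of collagen cross-linking, were called upward, as was H6pd (1.15), a sugar phosphate dehydrogenase of the endoplasmic reticulum.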

How the data were processed

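RNA-seq libraries of sorted mouse endothelium (16, in 8 groups of 2 by stage, site and cell type) were analysed from the FPKM per gene and library that the authors deposited. Cufflinks, featureCounts and the mm9 genome are named in the submitters' processing notes, without versions or roles. FPKM carries no read totals, so depth and counting error are unknown, and the number of libraries limits the precision. All value columns were matched to samples by their titles. The members and gene lists were chosen with earlier results of these data known. limma 3.58.1 in R 4.3.3 was fitted to log2(FPKM + 1) with an intensity trend, 1 mean per group over all 16 libraries, for the 13955 genes that reached 1 FPKM in 2 or more libraries (residual degrees of freedom 8, prior 3.68). P-values are two-sided, adjusted by Benjamini-Hochberg over all tested genes within each of 12 comparisons, and called under 0.05. The script was tested on simulated data. All members are named; of other pathway genes, up to 4 called per comparison with the largest difference and a mean of at least 5 FPKM in the higher group, some of which are not reported here. Alternatives were a pseudocount of 0.1, no filter, median-of-ratios scaling, library weights, only the libraries compared, a replicate block and left-out libraries. Promoter windows are from RefSeq (GRCm38.p6). Figures were drawn with matplotlib 3.10.9.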

Additional observations from a re-analysis of the deposited data

Results flagged for a closer look

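For 6 genes the E10.5 minus E9.5 difference in the yolk sac differed from that in the embryo by an interaction term (limma, adjusted over 13955 genes, 16 libraries). The difference of differences was 2.61 ± 0.54 for P4ha2, 1.99 ± 0.42 for Ndrg1, 1.20 ± 0.28 for Aldoc, 1.11 ± 0.22 for Bnip3, 0.83 ± 0.21 for P4ha1 and −1.10 ± 0.28 for Ldhb. In the fits that left out 1 library each, Bnip3 was lost in 5 of 16, P4ha2 in 6, Ndrg1 in 8, Aldoc in 11, P4ha1 in 11 and Ldhb in 12.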

How the results depend on the processing

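Of the 58 calls of members over the 12 comparisons, none changed sign under the alternatives named here, and 47 were kept when only the libraries compared were fitted, 54 with log2(FPKM + 0.1), 46 without a filter, 51 with median-of-ratios scaling, 50 with library quality weights and 57 with the replicate number as a block, which lost only Higd1a in yolk sac against embryo HE. The labels do not say what a replicate number stands for, and the correlation of deviations between groups was −0.26 to 0.38 over 28 pairs of groups (median 0.029), with 8 over 0.1, so pairing was not shown. The replicate block lost no other call and added some, to 6 in HE against EC over all settings (4 without it). Calls over all tested genes rose there from 1726 to 1861. Between HE and EC of the same stage and site the correlations were 0.011 to 0.38, with 3 of 4 over 0.1. A replicate block for each stage and site, chosen after seeing the data, kept 8 of the 10 calls between HE and EC, losing Ankrd37 over all settings (adjusted p = 0.0589) and in the E10.5 yolk sac (adjusted p = 0.0527), and gave 5 calls over all settings (3 lower, 2 higher) and 1 for the cell type by site interaction (0 without it). Over all tested genes that block gave 2309 calls over all settings (1726 without it) and 242 for the interaction (15 without it). Without both E10.5 yolk sac HE libraries, 35 of 52 calls were kept and counts of called members were 0 for HE against EC over all settings (4 with them), 3 for E10.5 against E9.5 in EC (0 with them) and 1 for the stage by site interaction (6 with them), and the E10.5 yolk sac gave no value for HE against EC. For HE against EC over all settings, 2.01% of all tested genes were then called higher and 0.566% lower. The shares were 1.94% and 1.99% for E10.5 against E9.5 in EC, and 0.733% and 0.218% for the stage by site interaction. HE against EC in the E10.5 yolk sac gave 0 calls with only the libraries compared and 0 with library quality weights (6 in the main analysis), and in the E9.5 embryo 2 with library quality weights (0). Over all tested genes, calls in the E10.5 yolk sac fell from 1335 to 1 in either setting. In the E9.5 embryo they rose from 22 to 586 with the weights. E10.5 against E9.5 in HE gave 1 call with only the libraries compared, 1 with log2(FPKM + 0.1), 1 without a filter and 1 with median-of-ratios scaling (2), and in EC 1 with only the libraries compared and 1 with library quality weights (0). Over all tested genes the calls in these settings numbered 75, 148, 412 and 327 in HE (318), and 217 and 372 in EC (282). The stage by site interaction gave 3 calls with log2(FPKM + 0.1) and 3 without a filter (6). Over all tested genes it gave 432 and 650 calls in these settings (745). Chosen after seeing the data, both E10.5 yolk sac replicate 1 libraries were left out. This gave 8 calls for HE against EC over all settings, 7 for E10.5 against E9.5 in HE and 3 in EC. For HE against EC, 11.6% of all tested genes were then called higher and 10.1% lower (6.7% and 5.67% in the main analysis). The shares were 2.7% and 4.3% for E10.5 against E9.5 in HE (1.20% and 1.08%), and 0.926% and 1.03% in EC (1.06% and 0.960%). Calls in the first 2 of these comparisons thus rose over all genes as well. The Gapdh difference between yolk sac and embryo turned to −0.25 in HE and −0.40 in EC. Leaving out 1 library at a time gave 0 to 8 calls for HE against EC over all settings, 0 to 8 in the E10.5 yolk sac, 16 to 22 for yolk sac against embryo in HE and 12 to 21 in EC, 0 to 8 for E10.5 against E9.5 in HE and 0 to 3 in EC, 0 to 3 for the cell type by site and 0 to 9 for the stage by site interaction, and 0 for the others. The shares of all tested genes called in the fits without 1 library are not reported here. The causes of these changes were not tested.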
